A study of Homo sapiens with 12 samples.

Results

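The proteasome genes were taken by name from a table of RNA-seq counts: every gene named PSMA, PSMB, PSMC or PSMD with a number, except the 3 interferon-inducible subunits PSMB8, PSMB9 and PSMB10, together with PSME1, PSME2, PSME3 and PSME4. The rule gave 40 genes of 38021 names. No measured value entered it, but it was chosen with earlier results of these data known. They comprise 8 alpha and 8 beta subunits of the core particle, 6 ATPases and 3 other subunits of the base, 8 lid subunits, 3 chaperones of base assembly and 4 activators. The counts came from 786O cells, derived from a clear cell kidney carcinoma that has lost VHL function, and from WT8 cells, which are 786O cells with wildtype VHL put back. Both lines were infected with a lentiviral pLKO.1 construct for a scrambled shRNA (shControl) or an shRNA against BMAL1 (shBMAL1) and were selected and kept in puromycin, so that the 4 groups of 3 libraries all share the viral vector and the drug. WT8 is a single derived line, and 1 shRNA against BMAL1 was used, so differences that belong to the line or to that shRNA cannot be told apart from those of VHL or BMAL1. The labels call the 3 libraries of a group biological replicates and do not say whether they came from separate infections. The study asked how BMAL1, a clock transcription factor, acts on gene expression in this cancer.

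The proteasome degrades proteins that carry ubiquitin chains. Its core particle is a barrel of alpha rings, which gate entry, around beta rings, which hold the proteolytic sites. The regulatory particle that caps the barrel has a base, whose ATPase ring unfolds substrates, and a lid, which removes the ubiquitin chain. Other caps, the PSME activators, open the core without ATP. Genes for the subunits are widely expressed and are known to be raised together by the transcription factor NFE2L1 when proteasome activity falls short.

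The libraries held 33182005 to 36477484 counts, and 16838 genes passed the filter on low counts. The gene for BMAL1, listed as ARNTL, had a log2 change with shBMAL1 of -1.62 in 786O and -2.48 in WT8. VHL had 17.6, 20.6 and 18.2 CPM in 786O shControl, 18.4, 18.5 and 21.3 CPM in 786O shBMAL1, 1006, 916 and 1019.9 CPM in WT8 shControl, and 661, 631 and 648 CPM in WT8 shBMAL1, so it was high in every WT8 library, and lower with shBMAL1 than with shControl there. Of the markers of the line, PAX8, CDH6, KRT8, KRT18 and VIM had at least 30 CPM in every library and CA9 had at most 1.41 CPM. Of the markers of other cells, PTPRC, CD3E, PECAM1, CDH5 and DCN stayed under 1 CPM and PDGFRB had 0.535 to 5.76 CPM, highest in WT8 shControl.

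Summed over the 40 genes, the level was 7889.7 ± 55.3 CPM (SD, n = 3) in 786O shControl, 7005 ± 68.8 CPM in 786O shBMAL1, 5603 ± 80.5 CPM in WT8 shControl and 6947 ± 42.5 CPM in WT8 shBMAL1. CPM are counts scaled to a common library total, with TMM factors. No library of one group reached the range of another, except that 786O shBMAL1 and WT8 shBMAL1 overlapped. The sum was 11.2% lower with shBMAL1 in 786O and 24.0% higher with shBMAL1 in WT8. With shControl it was 29.0% lower in WT8 than in 786O. Of the 38 genes tested, 27 had their lowest group mean in WT8 shControl and 21 their highest in 786O shControl. This order of the group means was not counted over all genes. In bulk RNA, fewer cells that express a gene and less of its RNA per cell cannot be told apart.

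**Figure D1:**
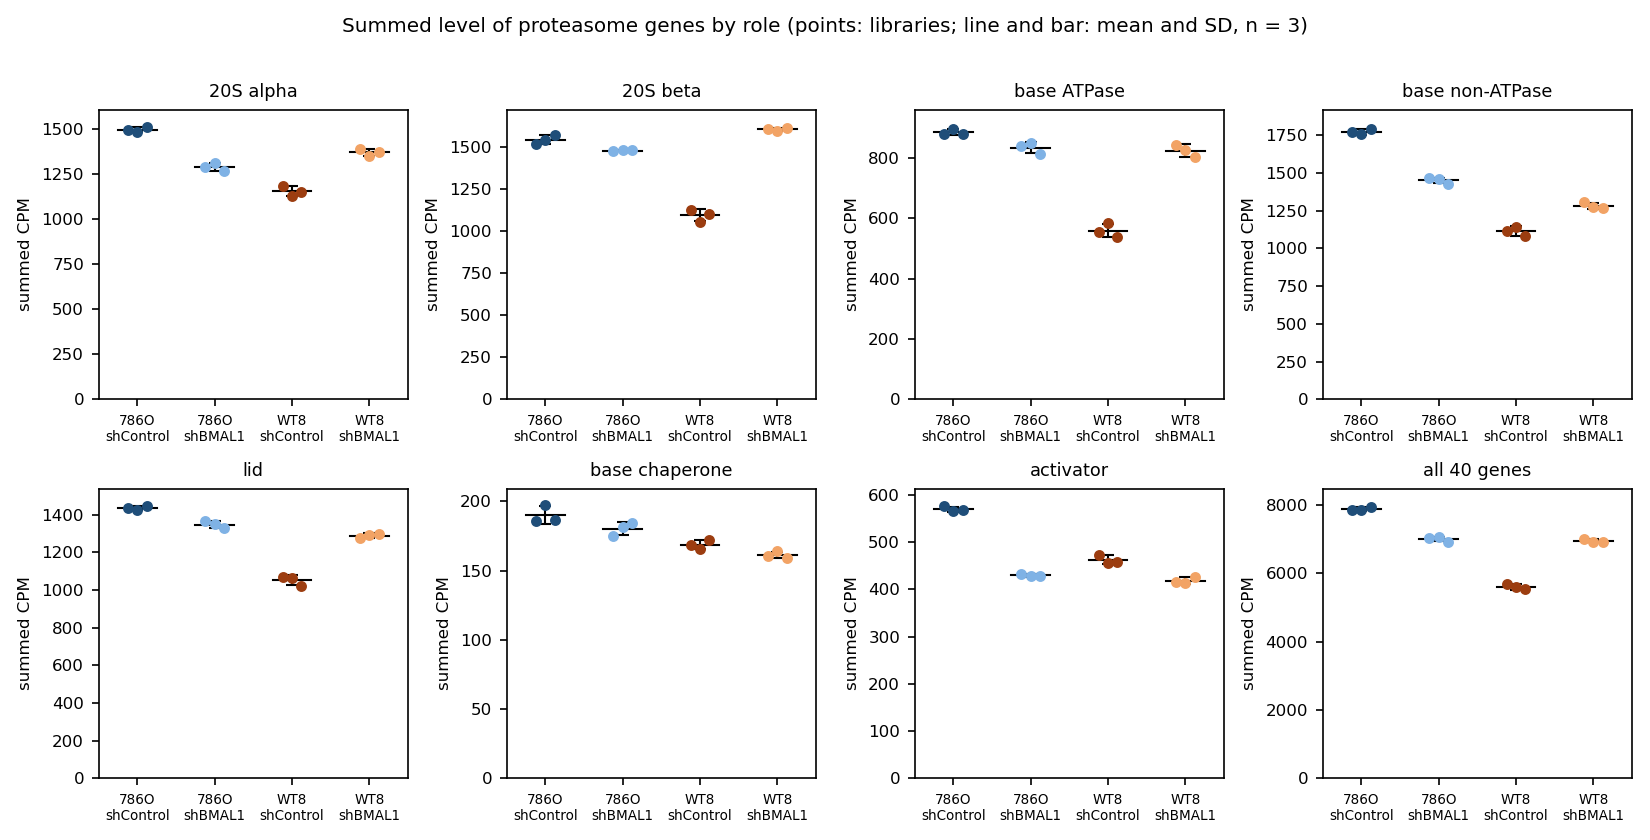
Summed CPM of the genes of each role, with a panel for all 40 genes: each point is a library, the line is the mean of a group and the bar its SD (n = 3), and every vertical axis starts at 0. The WT8 shControl libraries lie lowest for both core rings, the ATPases, the other base subunits and the lid, but not for the base chaperones or the activators.

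Per kilobase of transcript, the genes differed widely in level. In 786O shControl, PSMA7 was highest at 516 CPM per kilobase and PSMD2, a large scaffold of the base, followed at 429.9. The median over the 7 alpha genes was 118 CPM per kilobase and over the 7 beta genes 242. The base chaperones had 18.1 to 35.4 CPM per kilobase. Single genes of other roles were as low, with PSMC6 at 15.3, PSME4 at 18.8 and PSMD11 at 33.1. The order also depends on the length used. PSMD9 had 28.1 and PSMD12 34.6 CPM per kilobase of transcript, but 115 and 110 per kilobase of coding sequence. PSMC1, an ATPase of the same ring as the other 5, was lowest at 2.33 CPM per kilobase. GENCODE names 13 pseudogenes of PSMC1, and how reads that align to more than 1 place were counted is not given in the sources used here, so its level is uncertain. PSMA8, the testis form of an alpha subunit, had 0 counts in all 12 libraries, and PSMB11, the thymus form of a beta subunit, had 2 counts in 1 WT8 shControl library and 0 in the other 11. At these depths 3 counts is the limit that a count of 0 allows in a library.

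The promoters of the genes with the highest and the lowest changes with shBMAL1 in WT8 are shown so that the results below can be read against them. The 3 with the highest change were PSMC3, PSMD14 and PSMB3, and the 3 with the lowest were PSME3, PSMD9 and PSMD13. Each sequence is the 200 bases before the start site, from RefSeq on GRCh38.p14, written 5′ to 3′ on the strand of the gene. Capitals mark any match, on either strand, to TGACNNNGC (an antioxidant response element, the kind of site that NFE2L1 uses), CACGTG and ACGTG (E-box, the site of BMAL1, and the core shared with hypoxia response elements), GCGTG (a further hypoxia core), CCAAT (NF-Y) or CCGGAA (ETS factors).
PSMC3 (chr11:47426440-47426639, minus strand): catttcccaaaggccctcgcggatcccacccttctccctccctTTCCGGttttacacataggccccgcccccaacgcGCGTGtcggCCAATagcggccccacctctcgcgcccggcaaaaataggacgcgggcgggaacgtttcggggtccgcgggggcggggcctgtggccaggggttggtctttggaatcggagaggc
PSMD14 (chr2:161308225-161308424, plus strand): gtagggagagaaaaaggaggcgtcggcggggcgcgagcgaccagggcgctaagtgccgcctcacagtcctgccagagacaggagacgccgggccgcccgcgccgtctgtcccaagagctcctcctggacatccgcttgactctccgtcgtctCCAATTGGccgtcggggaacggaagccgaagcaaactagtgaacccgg
PSMB3 (chr17:38752541-38752740, plus strand): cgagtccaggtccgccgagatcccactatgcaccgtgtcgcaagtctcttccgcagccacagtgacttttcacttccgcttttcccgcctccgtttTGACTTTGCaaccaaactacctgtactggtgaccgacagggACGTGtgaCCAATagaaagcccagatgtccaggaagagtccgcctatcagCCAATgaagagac
PSME3 (chr17:42833197-42833396, plus strand): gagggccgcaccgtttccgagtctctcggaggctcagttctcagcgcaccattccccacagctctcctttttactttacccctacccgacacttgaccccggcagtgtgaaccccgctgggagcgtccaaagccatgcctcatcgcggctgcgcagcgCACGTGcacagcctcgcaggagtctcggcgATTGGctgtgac
PSMD9 (chr12:121888590-121888789, plus strand): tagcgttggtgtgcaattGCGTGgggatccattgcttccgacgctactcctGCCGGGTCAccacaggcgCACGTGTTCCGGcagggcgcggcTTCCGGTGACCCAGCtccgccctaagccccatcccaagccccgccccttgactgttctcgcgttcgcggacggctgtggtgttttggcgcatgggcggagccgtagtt
PSMD13 (chr11:236776-236975, plus strand): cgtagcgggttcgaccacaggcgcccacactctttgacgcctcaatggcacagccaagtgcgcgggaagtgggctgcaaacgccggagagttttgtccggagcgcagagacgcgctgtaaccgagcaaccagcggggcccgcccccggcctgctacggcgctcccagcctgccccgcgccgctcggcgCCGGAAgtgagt
Within these 200 bases, PSMB3 held 1 TGACNNNGC match and PSMD9 held 2, while PSME3 and PSMD9 each held 1 CACGTG. PSMC3 held none of these, but 1 match to GCGTG, 1 match to CCAAT and 1 match to CCGGAA. PSMB3 also has a CACGTG, which lies outside the printed bases but within the wider window used below.

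The RefSeq table of start sites used here was matched by 35 of the 40 genes, all but PSMA7, PSMB1, PSMB6, PSMB7 and PSMD4. In windows from 250 bases before to 50 after a start site, CCGGAA occurred in 20 of 35 genes (57.1%), beside 20.1% of all 27305 genes of the table, a gene with several start sites counting once. TGACNNNGC occurred in 12 of 35 genes (34.3%) beside 16.1%, and CCAAT in 18 of 35 genes (51.4%) beside 39.7%. CACGTG occurred in 3 of 35 genes (8.57%) beside 8.77%. The genes were PSMB3, which rose with shBMAL1 in WT8, and PSMD9 and PSME3, which fell there. The shorter core ACGTG, which every CACGTG contains, occurred in 7 of 35 genes (20%) beside 24.9%. GCGTG occurred in 12 of 35 genes (34.3%) beside 40.6%. The table of all genes includes RNA genes and genes that did not pass the filter on low counts. The shares among the genes tested were not counted. A match is a stretch of letters, not a site shown to be bound.

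In 786O cells, the proteasome genes that changed with shBMAL1 were mostly slightly lower. Of the 38 tested, 21 were called lower and 2 higher by the edgeR quasi-likelihood test (Benjamini-Hochberg adjusted p under 0.1 over all genes tested). Among all genes, 24.4% were called lower and 24.5% higher. The median change of the 38 was -0.10 on the log2 scale, beside 0.00070 over all genes, and all changes but that of PSME4 were smaller than 1.5-fold. Of all 16838 genes, 1125 were called higher and 1284 lower by more than 1.5-fold. By role, 5 of 7 alpha, 3 of 7 beta, 3 of 6 ATPase, 2 of 3 other base, 3 of 8 lid, 1 of 3 chaperone and 4 of 4 activator genes were called lower. The calls of PSMA1, PSMB4, PSMB6 and PSME2 were lost with another scaling (RLE) and at an adjusted p under 0.05. That of PSMB4, whose groups overlapped in CPM, was also lost without replicate 3 of 786O shControl (edgeR adjusted p = 0.347). The 2 called higher were both of the lid: PSMD12 and PSMD6.

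PSME4 encodes the large activator PA200, which acts in the nucleus. It had 140.5, 133 and 135 CPM in 786O shControl, 87.8, 79.1 and 86.2 CPM in 786O shBMAL1, 125, 129.5 and 125 CPM in WT8 shControl, and 108, 119.7 and 119 CPM in WT8 shBMAL1. No group overlapped another, and the 786O shBMAL1 libraries were lowest. With shBMAL1 in 786O its log2 change was -0.69 (SE 0.050, edgeR adjusted p = 7.99e-14). PSMD13, a structural subunit of the lid, had 154, 159.8 and 176 CPM in 786O shControl, 113, 109 and 108 CPM in 786O shBMAL1, 116, 120.2 and 114 CPM in WT8 shControl, and 103, 105 and 102 CPM in WT8 shBMAL1. Here too the groups were apart, with 786O shControl highest. In 786O it changed by -0.57 (SE 0.048, edgeR adjusted p = 3.82e-12) with shBMAL1. PSMC1 had 9.31, 11.5 and 9.84 CPM in 786O shControl, 7.35, 7.86 and 6.58 CPM in 786O shBMAL1, 7.26, 6.93 and 5.95 CPM in WT8 shControl, and 7.63, 5.56 and 6.32 CPM in WT8 shBMAL1. All 786O shControl libraries were above the rest, and the other 3 groups overlapped. Its log2 change was -0.49 (SE 0.12, edgeR adjusted p = 0.00115), with the uncertainty of its level given above.

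PSMD12, also of the lid, had 152, 148 and 153 CPM in 786O shControl, 169, 163 and 155 CPM in 786O shBMAL1, 167, 177 and 166 CPM in WT8 shControl, and 187, 189 and 189 CPM in WT8 shBMAL1. The 786O groups were apart by less than 2 CPM at their nearest libraries, and its log2 change with shBMAL1 in 786O was 0.10 (SE 0.044, edgeR adjusted p = 0.0587). PSMD6, another lid subunit, had 127, 126 and 132 CPM in 786O shControl, 139.8, 138 and 135 CPM in 786O shBMAL1, 105, 103 and 95.1 CPM in WT8 shControl, and 135, 135 and 129 CPM in WT8 shBMAL1. The 786O shBMAL1 libraries lay above the 786O shControl ones, while WT8 shBMAL1 overlapped both. Its log2 change was 0.10 (SE 0.046, edgeR adjusted p = 0.0762) in 786O, and an antisense gene, PSMD6-AS2, overlaps it. Neither call held at an adjusted p under 0.05 or without the filter on low counts, and leaving out 1 library gave an edgeR adjusted p of up to 0.287 for PSMD12 (without replicate 1 of 786O shBMAL1) and 0.216 for PSMD6 (without replicate 2 of 786O shControl).

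In WT8 cells, the same shRNA went with higher levels across most of the complex. Of the 38 genes, 28 were called higher and 5 lower by the same test, where 32.9% of all genes were called higher and 36.9% lower. The median change was 0.40 on the log2 scale, beside -0.043 over all genes. More than 1.5-fold, 8 of the 38 genes were called higher and 0 lower. Of all 16838 genes, 2396 were called higher and 3641 lower by more than 1.5-fold. All 7 beta genes were called higher, as were 5 of 7 alpha, 4 of 6 ATPase, 2 of 3 other base and 7 of 8 lid genes. Of the chaperones of base assembly, PSMD10 rose and PSMD9 fell. Of the 4 activators, 2 rose and 2 fell. The lid gene PSMD3 was among those called higher, but its change was small, and the call was lost at an adjusted p under 0.05, with counts halved, without replicate 2 of WT8 shBMAL1, and without replicate 3 of WT8 shControl (edgeR adjusted p = 0.422). The other genes called lower were PSMA7 and PSMD13, and the call of PSMA7 was lost without replicate 2 of WT8 shBMAL1 (edgeR adjusted p = 0.209).

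The ATPase gene PSMC3 (chromosome 11, 47440320 to 47448024, minus strand, GENCODE on GRCh37), which encodes part of the ring that unfolds substrates, changed most. It had 293, 305 and 289 CPM in 786O shControl, 265, 268 and 259 CPM in 786O shBMAL1, 124, 141 and 125 CPM in WT8 shControl, and 261, 245 and 246 CPM in WT8 shBMAL1. WT8 shControl was far below every other group, and WT8 shBMAL1 reached into the range of 786O shBMAL1. With shBMAL1 in WT8 it changed by 0.95 (SE 0.047, edgeR adjusted p = 3.29e-19) on the log2 scale. PSMD14 (chromosome 2, 162164936 to 162268228, plus strand) encodes the metalloprotease of the lid that cuts ubiquitin chains from substrates. It had 124, 134 and 128 CPM in 786O shControl, 129.8, 134 and 134 CPM in 786O shBMAL1, 80.1, 75.0 and 75.9 CPM in WT8 shControl, and 131, 139 and 139.6 CPM in WT8 shBMAL1. Only the WT8 shControl libraries stood apart, below the other 9, and the log2 change with shBMAL1 in WT8 was 0.82 (SE 0.047, edgeR adjusted p = 2.11e-17).

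PSMB3 (chromosome 17, 36908994 to 36920478, plus strand), a beta subunit without a proteolytic site, had 200.1, 207 and 203 CPM in 786O shControl, 201, 199.7 and 208 CPM in 786O shBMAL1, 92.0, 86.1 and 92.1 CPM in WT8 shControl, and 169, 154 and 149.9 CPM in WT8 shBMAL1. Both 786O groups overlapped at the top, WT8 shBMAL1 lay between, and WT8 shControl was lowest. Its log2 change with shBMAL1 in WT8 was 0.81 (SE 0.047, edgeR adjusted p = 4.04e-17). PSMD9, a chaperone of base assembly, went the other way, with 75.5, 83.0 and 71.4 CPM in 786O shControl, 73.4, 78.2 and 69.1 CPM in 786O shBMAL1, 81.4, 78.9 and 77.9 CPM in WT8 shControl, and 67.0, 65.3 and 64.4 CPM in WT8 shBMAL1. The WT8 shBMAL1 libraries were below all others, the 786O groups overlapped, and the log2 change in WT8 was -0.28 (SE 0.055, edgeR adjusted p = 4.63e-05). The lid gene PSMD13 also fell there, with a log2 change of -0.18 (SE 0.048, edgeR adjusted p = 0.00181).

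**Figure D2:**
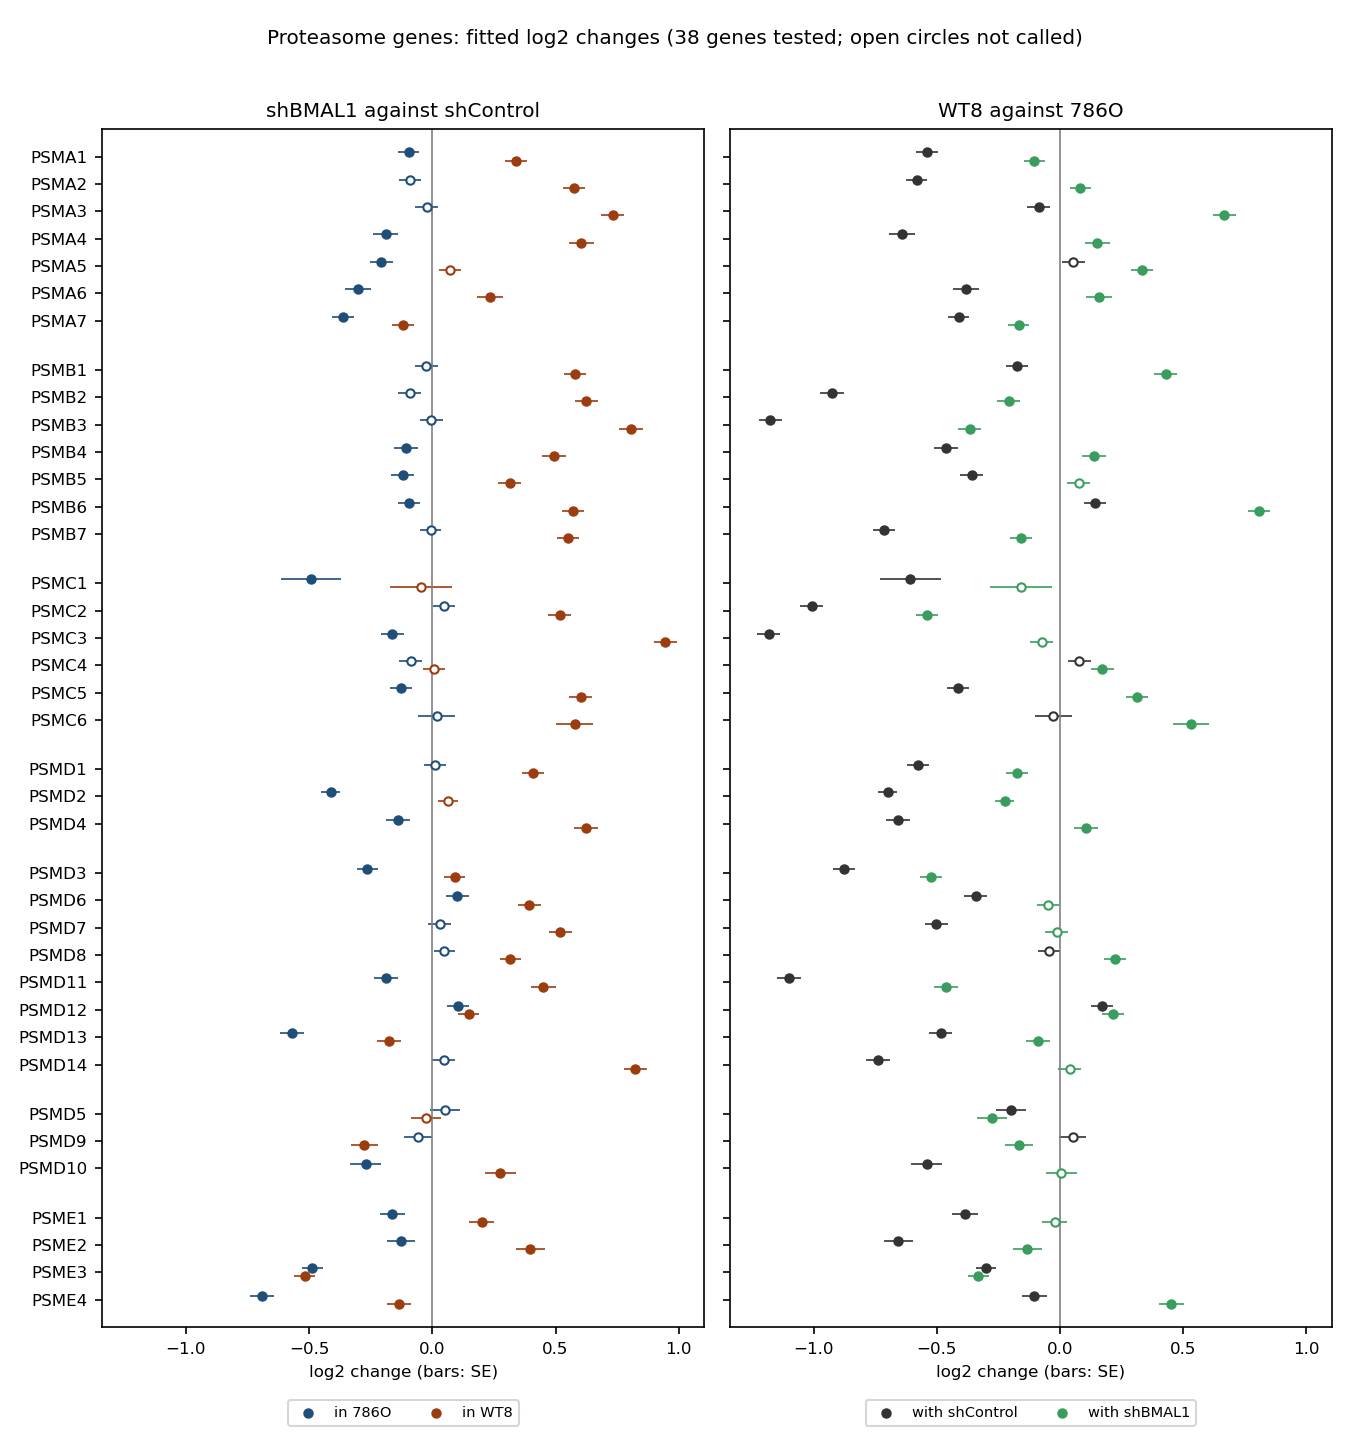
Fitted log2 change of each of the 38 genes tested, grouped by role from the alpha genes at the top to the activators at the bottom: the left panel gives shBMAL1 against shControl in each line and the right panel WT8 against 786O with each shRNA, with bars of 1 SE and open circles for genes not called. On the left, the WT8 points of the core, base and lid lie mostly to the right of 0 and the 786O points near or left of it, and on the right the shControl points lie mostly left of 0 and the shBMAL1 points around it.

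The 3 proteolytic subunits were followed in every library. PSMB5, with the chymotrypsin-like site (chromosome 14, 23485752 to 23504439, minus strand), had 166, 167 and 166 CPM in 786O shControl, 152, 157 and 149.6 CPM in 786O shBMAL1, 134, 123 and 132 CPM in WT8 shControl, and 165, 166 and 152 CPM in WT8 shBMAL1. WT8 shControl was below all other groups, and WT8 shBMAL1 overlapped both 786O groups. Its log2 change with shBMAL1 was -0.12 (SE 0.046, edgeR adjusted p = 0.0325) in 786O and 0.31 (SE 0.046, edgeR adjusted p = 2.42e-07) in WT8. PSMB6, with the caspase-like site (chromosome 17, 4699439 to 4701797, plus strand), had 168, 156 and 160.2 CPM in 786O shControl, 150.3, 154 and 149 CPM in 786O shBMAL1, 186, 178 and 169 CPM in WT8 shControl, and 263, 264 and 266 CPM in WT8 shBMAL1. With shControl it was higher in WT8 than in 786O, unlike PSMB5 and PSMB7, and no group overlapped another. On the log2 scale it changed with shBMAL1 by -0.093 (SE 0.044, edgeR adjusted p = 0.0887) in 786O and 0.57 (SE 0.044, edgeR adjusted p = 6.94e-14) in WT8. PSMB7, with the trypsin-like site (chromosome 9, 127115744 to 127177723, minus strand), had 247, 239 and 257 CPM in 786O shControl, 251, 239 and 250.2 CPM in 786O shBMAL1, 151, 147 and 156 CPM in WT8 shControl, and 216, 216 and 232 CPM in WT8 shBMAL1. The 786O groups overlapped and both WT8 groups lay below them, WT8 shControl lowest. Its log2 change with shBMAL1 was -0.0073 (SE 0.044, edgeR adjusted p = 0.919) in 786O and 0.55 (SE 0.045, edgeR adjusted p = 3.32e-13) in WT8. PSMB7 was the 1 proteasome gene with values that were not whole numbers. In 786O the call of PSMB5 was lost without replicate 3 of 786O shBMAL1 (edgeR adjusted p = 0.101), and that of PSMB6 was lost with DESeq2 and without replicate 1 of 786O shControl (edgeR adjusted p = 0.286), among others.

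All 4 activator genes were lower with shBMAL1 in 786O, whereas in WT8 PSME1 and PSME2 rose and PSME3 and PSME4 fell. PSME1 and PSME2 form the interferon-inducible activator PA28 that favours peptides for antigen presentation. PSME1 had 127, 133 and 137 CPM in 786O shControl, 114, 126 and 115 CPM in 786O shBMAL1, 108, 98.0 and 97.8 CPM in WT8 shControl, and 121, 109 and 118 CPM in WT8 shBMAL1. The 2 groups of each line were apart, and WT8 shBMAL1 overlapped 786O shBMAL1. The log2 change with shBMAL1 was -0.16 (SE 0.051, edgeR adjusted p = 0.00984) in 786O and 0.20 (SE 0.052, edgeR adjusted p = 0.000964) in WT8. PSME2 had 58.5, 57.5 and 58.1 CPM in 786O shControl, 55.3, 50.9 and 53.2 CPM in 786O shBMAL1, 39.0, 34.9 and 36.6 CPM in WT8 shControl, and 49.7, 46.1 and 49.7 CPM in WT8 shBMAL1. No group overlapped another, and WT8 shControl was lowest. Its log2 change was -0.13 (SE 0.058, edgeR adjusted p = 0.0774) in 786O and 0.40 (SE 0.059, edgeR adjusted p = 3.44e-07) in WT8. The call in 786O was lost with DESeq2 and without replicate 2 of 786O shBMAL1 (edgeR adjusted p = 0.233), among others.

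PSME3 encodes the nuclear form of this activator, known for degrading proteins without ubiquitin. It had 251, 242 and 239 CPM in 786O shControl, 176, 173 and 174 CPM in 786O shBMAL1, 201, 194 and 199 CPM in WT8 shControl, and 137, 139 and 139 CPM in WT8 shBMAL1. The shBMAL1 libraries were below the shControl libraries of both lines, and no group overlapped another. Its log2 change was -0.49 (SE 0.041, edgeR adjusted p = 5.02e-12) in 786O and -0.52 (SE 0.042, edgeR adjusted p = 2.62e-13) in WT8. PSME4 changed by -0.14 (SE 0.049, edgeR adjusted p = 0.0165) in WT8, a call lost without replicate 1 of WT8 shBMAL1 (edgeR adjusted p = 0.175). Each of the 4 activator genes overlaps another gene on the opposite strand (EMC9, RNF31, BECN1 and ACYP2, in the order PSME1 to PSME4), and PSME2 has 6 named pseudogenes. Whether strand was used in counting is not given in the sources used here.

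**Figure D3:**
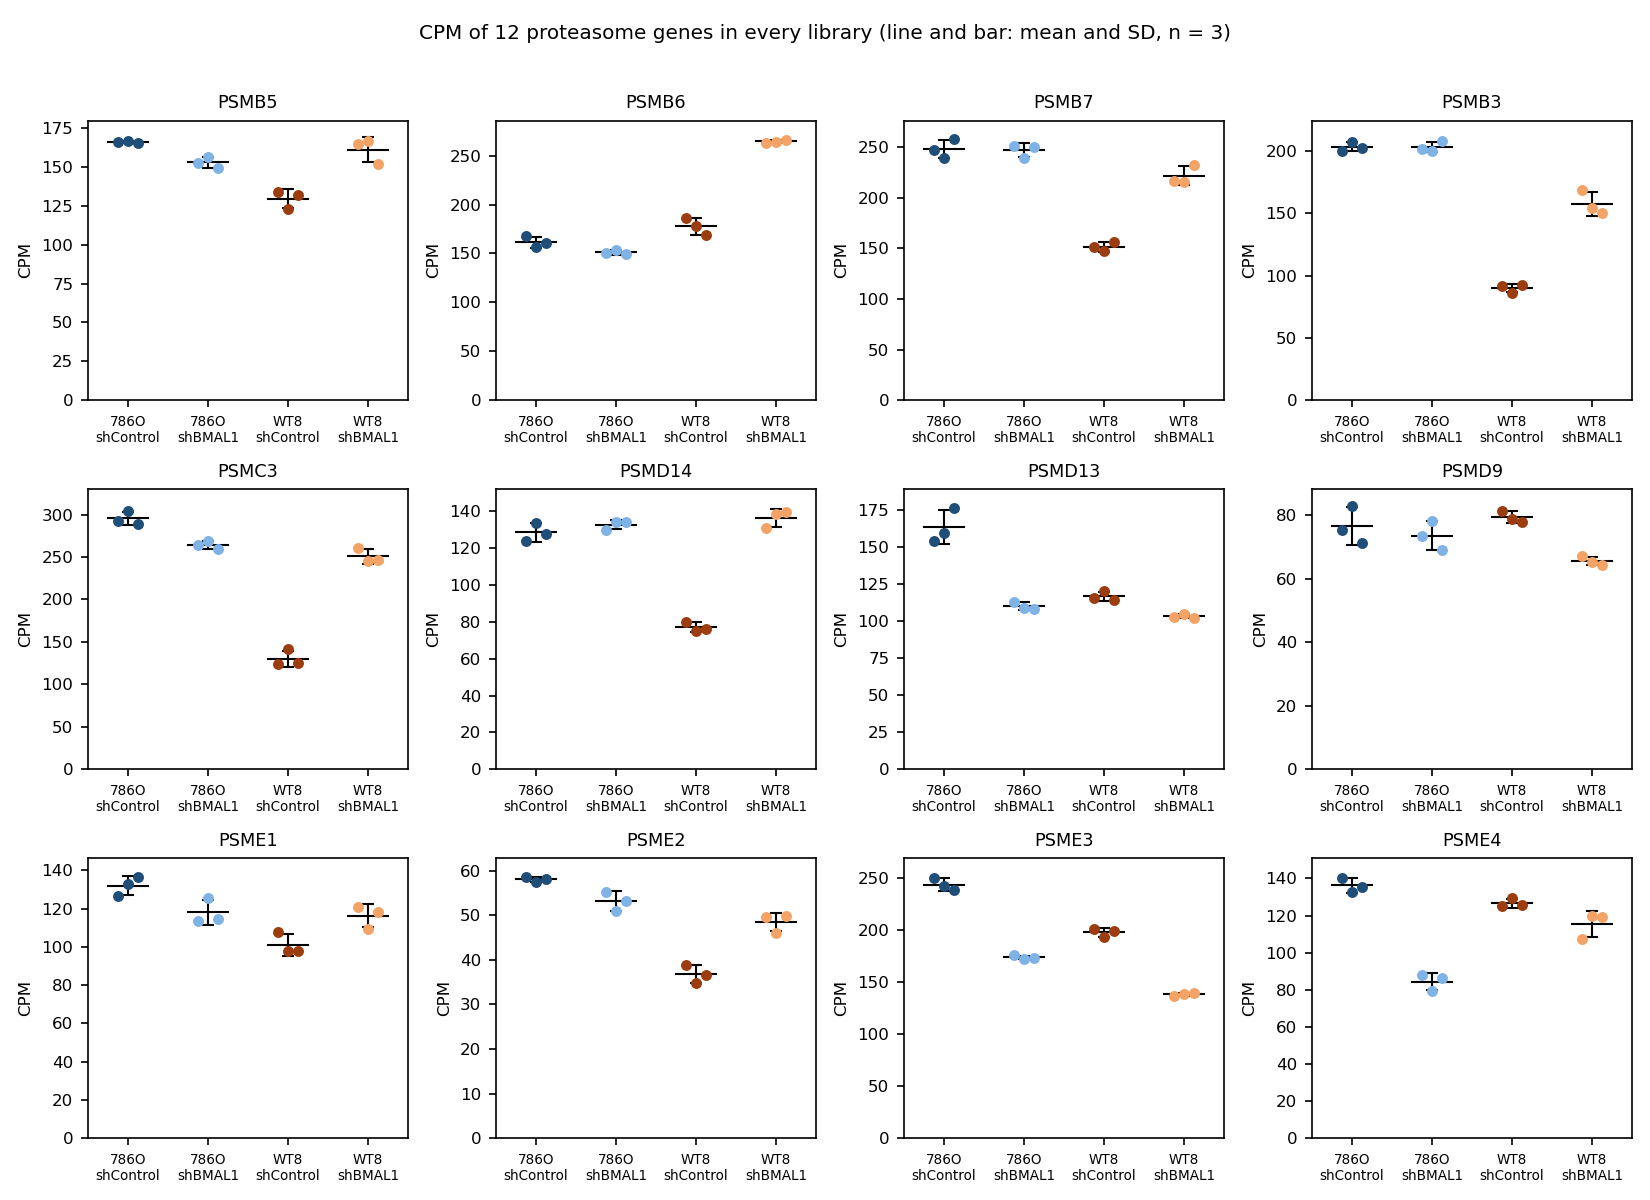
CPM of 12 proteasome genes in every library, with the mean and SD of each group (n = 3) and every vertical axis from 0: the 3 proteolytic subunits, the genes with the largest rises and the largest falls with shBMAL1 in WT8, and the 4 activators. PSMB3, PSMC3 and PSMD14 are lowest in WT8 shControl, PSME3 is lower with shBMAL1 in both lines, and PSME4 is lowest in 786O shBMAL1.

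The lines already differed with shControl. There, 31 of the 38 genes were called lower in WT8 than in 786O and 2 higher, where 40.2% of all genes were called lower and 39.3% higher. The median difference was -0.47 on the log2 scale, beside 0.00057 over all genes. More than 1.5-fold, 13 of the 38 genes were called lower and 0 higher. Of all 16838 genes, 4254 were called lower and 4058 higher by more than 1.5-fold. The largest differences were in PSMC3 at -1.18 (SE 0.047, edgeR adjusted p = 1.95e-22), PSMB3 at -1.17 (SE 0.047, edgeR adjusted p = 2.6e-22) and PSMD11 at -1.10 (SE 0.050, edgeR adjusted p = 1.17e-20). PSMD11, a lid subunit known for raising proteasome assembly in stem cells, had 130.2, 130.0 and 122 CPM in 786O shControl, 118, 108 and 109.9 CPM in 786O shBMAL1, 58.4, 59.7 and 60.1 CPM in WT8 shControl, and 78.2, 80.3 and 85.1 CPM in WT8 shBMAL1. No group overlapped another, and both WT8 groups were below both 786O groups. The 2 genes higher in WT8 were PSMD12 at 0.17 (SE 0.044, edgeR adjusted p = 0.000779) and PSMB6 at 0.14 (SE 0.044, edgeR adjusted p = 0.00442).

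PSMB5, PSMB7, PSMD14 and the activator genes were also lower in WT8 shControl. The log2 difference was -0.36 for PSMB5 and -0.71 for PSMB7 (edgeR adjusted p = 1.18e-08 and 1.33e-16). For PSMD14 it was -0.74 (edgeR adjusted p = 2.61e-16). For PSME1, PSME2, PSME3 and PSME4 it was -0.38, -0.66, -0.30 and -0.10 (edgeR adjusted p = 3.01e-08, 2.61e-12, 4.88e-08 and 0.0553). The call of PSME4 was lost with DESeq2 and without replicate 1 of 786O shControl (edgeR adjusted p = 0.162), among others. This comparison and that of shBMAL1 in WT8 use the same 3 WT8 shControl libraries. A low value in those libraries lowers the one and raises the other, and it also raises the interaction given below. Likewise, the 786O comparison of the shRNAs shares its shControl libraries with the comparison of the lines.

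With shBMAL1 in both lines, which uses none of the shControl libraries, the proteasome genes of the lines differed in both directions. Of the 38 genes, 15 were called higher in WT8 and 15 lower, where 36.0% of all genes were called higher and 37.0% lower. The median difference was -0.017 on the log2 scale, beside 0.0049 over all genes. The beta gene PSMB6 was highest in WT8 relative to 786O, at 0.81 (SE 0.044, edgeR adjusted p = 3.71e-18). PSMA3, an alpha subunit, had 90.3, 87.2 and 91.5 CPM in 786O shControl, 87.8, 91.3 and 85.7 CPM in 786O shBMAL1, 82.3, 85.3 and 85.6 CPM in WT8 shControl, and 141, 140.5 and 139 CPM in WT8 shBMAL1. WT8 shBMAL1 was far above the other groups, which lay within 10 CPM of each other, and the difference was 0.67 (SE 0.046, edgeR adjusted p = 2.55e-15). The antisense gene PSMA3-AS1 overlaps it. PSMC6, an ATPase, had 33.1, 32.2 and 33.9 CPM in 786O shControl, 34.1, 33.5 and 32.8 CPM in 786O shBMAL1, 30.6, 38.4 and 28.4 CPM in WT8 shControl, and 48.1, 49.1 and 48.1 CPM in WT8 shBMAL1. WT8 shBMAL1 was again above the rest, and the difference was 0.53 (SE 0.074, edgeR adjusted p = 8.67e-08).

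Genes that stayed lower in WT8 with shBMAL1 were led by PSMC2, PSMD3 and PSMD11. PSMC2, an ATPase, had 218, 224 and 221 CPM in 786O shControl, 229, 235 and 222 CPM in 786O shBMAL1, 111, 114 and 105 CPM in WT8 shControl, and 157, 165 and 149.6 CPM in WT8 shBMAL1. Both WT8 groups were below the 786O groups, which overlapped, and the difference with shBMAL1 was -0.54 (SE 0.045, edgeR adjusted p = 6.31e-13). PSMC2 overlaps PMPCB on the same strand and 2 genes on the other. PSMD3, a lid subunit, had 335, 339 and 326 CPM in 786O shControl, 272, 279.9 and 281 CPM in 786O shBMAL1, 192, 183 and 169.8 CPM in WT8 shControl, and 194, 196 and 190.1 CPM in WT8 shBMAL1. The WT8 groups overlapped and were below both 786O groups, and the difference with shBMAL1 was -0.52 (SE 0.044, edgeR adjusted p = 5.85e-13). For PSMD11 it was -0.46 (SE 0.049, edgeR adjusted p = 2.66e-10). Among the other named genes, PSME4 was higher by 0.45 (SE 0.050, edgeR adjusted p = 6.15e-10) and PSME3 was at -0.33 (SE 0.042, edgeR adjusted p = 1.08e-08). PSMB7 was at -0.16 (SE 0.044, edgeR adjusted p = 0.00213) and PSME2 at -0.13 (SE 0.058, edgeR adjusted p = 0.0434), a call lost without replicate 2 of WT8 shBMAL1 (edgeR adjusted p = 0.223). PSMB5, PSMD14 and PSME1 were not called, at 0.076, 0.039 and -0.022 (edgeR adjusted p = 0.139, 0.462 and 0.72).

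The difference between the lines in the change with shBMAL1 was tested as an interaction, the log2 change in WT8 minus that in 786O. It was positive and called for 33 of the 38 genes and negative and called for 1, where 27.4% of all genes were called positive and 28.5% negative. The median was 0.51 on the log2 scale, beside -0.031 over all genes. All 7 alpha genes, all 7 beta genes and all 3 other base genes were called positive, with 5 of 6 ATPase genes and 7 of 8 lid genes. PSMC3 had the largest value at 1.11 (SE 0.066, edgeR adjusted p = 1.18e-16), then PSMB3 at 0.81 (SE 0.066, edgeR adjusted p = 7.2e-13) and PSMA4 at 0.79 (SE 0.072, edgeR adjusted p = 1.34e-11). PSMA4, an alpha subunit of the gate, had 153, 156 and 163 CPM in 786O shControl, 134, 148 and 133 CPM in 786O shBMAL1, 106, 102 and 94.7 CPM in WT8 shControl, and 146, 153 and 162 CPM in WT8 shBMAL1. It was lower with shBMAL1 in 786O and higher in WT8, and WT8 shBMAL1 overlapped both 786O groups.

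For the proteolytic subunits the interaction was 0.43 for PSMB5, 0.66 for PSMB6 and 0.56 for PSMB7 (edgeR adjusted p = 6.5e-07, 2.68e-11 and 2.14e-09), and for PSMD14 it was 0.78 (SE 0.066, edgeR adjusted p = 2.33e-12). PSME1, PSME2 and PSME4 were at 0.36, 0.52 and 0.56 (edgeR adjusted p = 7.43e-05, 1.81e-06 and 2.52e-08). PSME3 was not called at -0.031 (SE 0.059, edgeR adjusted p = 0.699). PSMD9 was the 1 gene called negative, at -0.22 (SE 0.078, edgeR adjusted p = 0.0199), a call lost without replicate 2 of 786O shBMAL1 (edgeR adjusted p = 0.107). PSMC4, PSMD5 and PSMD12 were not called either. The 2 changes with shBMAL1 share no library. Across the 38 genes their Pearson correlation was 0.58 and Spearman's rho 0.41, a description over genes that share libraries and depth. The change was the higher one in WT8 for 35 of the 38, beside 8069 of all 16838 genes.

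Genes around the proteasome were listed for comparison. The counts called in these lists stand beside 24.5% of all genes called higher and 24.4% lower with shBMAL1 in 786O, 32.9% higher and 36.9% lower with shBMAL1 in WT8, and 39.3% higher and 40.2% lower in WT8 than in 786O with shControl. PSMB8, PSMB9 and PSMB10 replace the proteolytic subunits in the immunoproteasome. All 3 were lower with shBMAL1 in both lines: the log2 change was -0.52, -0.74 and -0.48 in 786O (edgeR adjusted p = 3.15e-09, 1.25e-09 and 1.07e-07) and -0.45, -0.32 and -0.27 in WT8 (edgeR adjusted p = 4.28e-08, 0.00566 and 0.000509). They were also lower in WT8 than in 786O with either shRNA, PSMB9 by the most. Their sum was 180.3 ± 3.86 CPM in 786O shControl, 124 ± 6.18 CPM in 786O shBMAL1, 94.1 ± 2.71 CPM in WT8 shControl and 73.2 ± 5.11 CPM in WT8 shBMAL1 (SD, n = 3). In WT8 the constitutive proteolytic genes rose with shBMAL1 while their inducible counterparts fell. Of 30 interferon-induced genes, the test called 1 higher and 27 lower with shBMAL1 in 786O and 3 higher and 24 lower in WT8, with medians of -0.80 and -1.57 on the log2 scale.

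Of 19 genes for assembly factors and associated proteins, the test called 6 higher and 1 lower with shBMAL1 in 786O and 13 higher and 5 lower in WT8, with medians of 0.055 and 0.25 on the log2 scale. With shControl it called 5 higher and 12 lower in WT8 than in 786O (median -0.26). POMP, a maturation factor of the core, changed by 0.073 (SE 0.050, edgeR adjusted p = 0.25) in 786O and 0.58 (SE 0.050, edgeR adjusted p = 1.13e-12) in WT8. PSMF1, an inhibitor of the core, changed by 0.15 (SE 0.054, edgeR adjusted p = 0.0267) in 786O and 0.18 (SE 0.054, edgeR adjusted p = 0.00396) in WT8. Of 17 ubiquitin and shuttle genes, it called 2 higher and 6 lower with shBMAL1 in 786O and 13 higher and 3 lower in WT8 (medians -0.041 and 0.18). Of 10 genes of the NFE2L1 pathway, it called 3 higher and 4 lower with shBMAL1 in 786O and 5 higher and 4 lower in WT8 (medians -0.060 and 0.11). NFE2L1 itself was lower with shBMAL1, at -0.21 (SE 0.042, edgeR adjusted p = 0.000104) in 786O and -0.39 (SE 0.043, edgeR adjusted p = 7.41e-10) in WT8, and lower in WT8 than in 786O with shControl, at -0.96 (SE 0.043, edgeR adjusted p = 4.02e-21).

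In the 2 comparisons of groups that use the WT8 shControl libraries, a list of 30 cell cycle genes moved in the direction of most proteasome genes and much further. Their sum was 5876 ± 74.4 CPM in 786O shControl, 6026 ± 111 CPM in 786O shBMAL1, 1265 ± 39.6 CPM in WT8 shControl and 5674 ± 11.9 CPM in WT8 shBMAL1 (SD, n = 3). All 30 were lower in WT8 than in 786O with shControl (median -2.28 on the log2 scale), and all 30 rose with shBMAL1 in WT8 (median 2.21). In the interaction, which also uses the WT8 shControl libraries, all 30 were called positive (median 2.15, beside 0.51 for the proteasome genes). In 786O the test called 11 of the 30 higher and 5 lower with shBMAL1 (median 0.026). The part of proliferation in the changes of the proteasome genes was not tested.

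**Figure D4:**
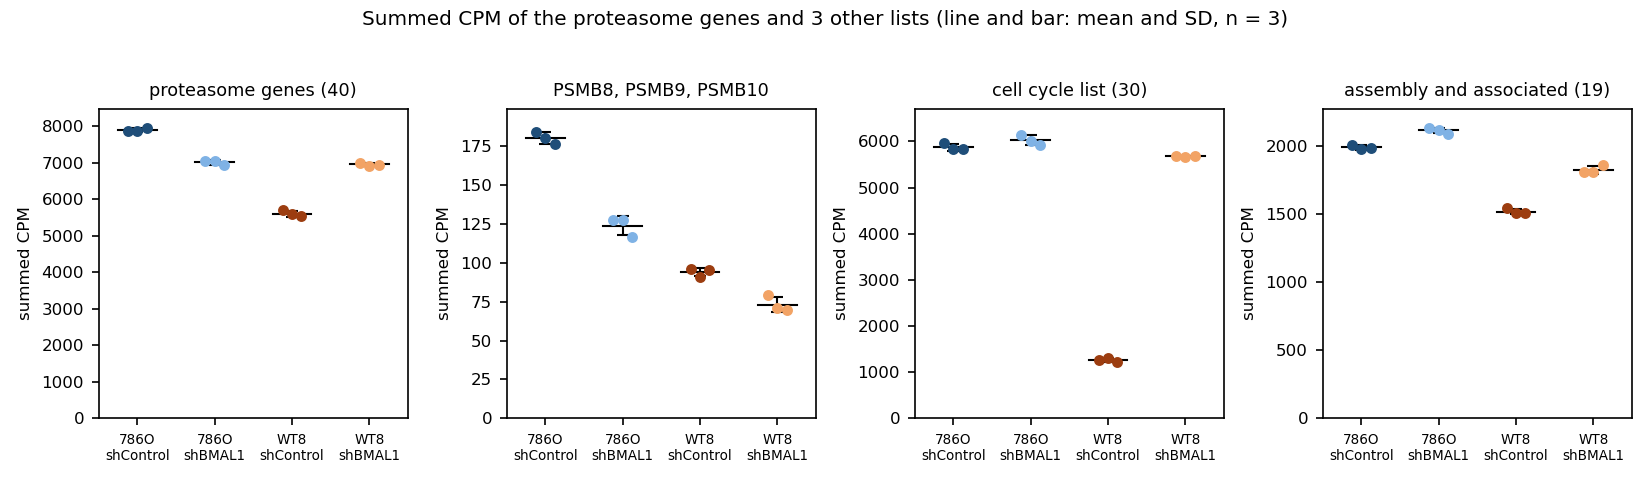
Summed CPM per library of the 40 proteasome genes, the 3 immunoproteasome genes, the 30 cell cycle genes and the 19 assembly and associated genes, with group means and SD (n = 3) and vertical axes from 0. The proteasome and cell cycle sums are both lowest in WT8 shControl, and the immunoproteasome sum is lowest in WT8 shBMAL1.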

How the data were processed

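RNA was sequenced from 12 libraries of 786O and WT8 cells as read pairs, per the labels from stranded mRNA libraries. The authors deposited 1 table of estimated counts per gene. The methods of the study name SeqMan NGen and ArrayStar with GRCh37, whereas the submitters' processing notes name STAR, DESeq2 and hg38, so the aligner and build behind these values are uncertain. The annotation, the use of strand and the treatment of reads with several alignments are not given in the sources used here.

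The table had 38074 lines for 38021 names, and lines with the same name were summed. A value of 0.028 stood for 0 in 47.0% of values and was set to 0. Of the rest, 5.67% were not whole, and values were rounded for the count model. A count of 2 (14754 times) was more frequent than a count of 1 (11117 times), so mates may have been counted separately.

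Genes were filtered with filterByExpr, which left 16838 of 26925 with a count, and scaled by TMM (factors 0.948 to 1.04). All 12 libraries entered a robust quasi-likelihood fit of group means (edgeR 4.0.16, R 4.3.3), where the common coefficient of variation was 5.70%. P-values were Benjamini-Hochberg adjusted over all 16838 genes, and genes under 0.1 were called. The SE was derived from the log2 change and its F statistic. The fit was tested on simulated data. Limits from counts cover counting error only. The p-values rest on the spread between libraries within groups, estimated over the 4 groups together and with information shared across genes. The tests had been planned for plain counts.

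The members and lists were chosen with earlier results of these data known. Named in every library were PSMB5, PSMB6, PSMB7, PSMD14, the PSME genes, PSMA8 and PSMB11, and in each comparison the top 3 members in either direction among those called without overlap in CPM (for the interaction, among those called). PSMB8, PSMB9, PSMB10, POMP, PSMF1, NFE2L1, ARNTL and VHL were named beside them. The 6 lists were written from memory. Gene positions, pseudogenes and lengths (the canonical transcript) are from GENCODE 44 on GRCh37. Alternatives were DESeq2 1.42.0, RLE scaling, no filter, a threshold of 0.05, fits of only the 2 groups compared, a replicate block, halved counts and leaving out each library.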

Additional observations from a re-analysis of the deposited data

Results flagged for a closer look

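The following were singled out because the change with shBMAL1 differed between the 2 lines by the interaction test of edgeR. The test called 33 proteasome genes more positive in WT8 than in 786O and 1 more negative, where 27.4% of all genes were called positive and 28.5% negative. The interaction on the log2 scale was 1.11 for PSMC3, 0.81 for PSMB3 and 0.79 for PSMA4. Among the proteolytic subunits it was 0.43 for PSMB5, 0.66 for PSMB6 and 0.56 for PSMB7. It was 0.78 for PSMD14, 0.36 for PSME1, 0.52 for PSME2 and 0.56 for PSME4. PSMD9 was the 1 gene called with a negative value, -0.22. The groups have 3 libraries each, so no library was tested for standing apart from its group.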

How the results depend on the processing

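The 2 lid genes called higher with shBMAL1 in 786O became 0 without a filter on low counts and at a threshold of 0.05, and ran from 0 to 2 when 1 library was left out. They fell to 1 or 0 without replicate 1 or 2 of 786O shControl, any replicate of 786O shBMAL1, or replicate 2 of WT8 shBMAL1. The 1 negative call of the interaction (PSMD9) was lost without replicate 2 of 786O shBMAL1 (range 0 to 1). The other counts of called genes kept within 1.5 times under every alternative. Leaving out 1 library gave 17 to 24 lower in 786O, 27 to 30 higher and 4 to 5 lower in WT8, 29 to 32 lower and 2 to 3 higher between the lines with shControl, 13 to 16 higher and 12 to 16 lower with shBMAL1, and 32 to 33 positive interactions. Of the 17162 to 17301 genes tested without 1 library, 7353 to 8313 were called in either direction in 786O. In WT8 it was 11281 to 11938, and for the interaction 9028 to 9233. DESeq2 gave 18 lower in 786O, 29 higher in WT8 and 33 positive interactions. Over all genes it called, in either direction, 7836 of 18564 in 786O, 11569 of 21174 in WT8 and 9115 of 19608 for the interaction. Without 1 library, the medians of the log2 change ran from -0.12 to -0.10 in 786O, 0.36 to 0.41 in WT8, -0.50 to -0.43 and -0.039 to 0.0049 between the lines with shControl and with shBMAL1, and 0.47 to 0.54 for the interaction. The WT8 median was 0.42 with only the 2 groups compared. The cause was not tested.

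The replicate numbers did not pair the libraries: same-numbered libraries correlated with r from -0.066 to 0.084 in their deviations from the group means. A replicate block gave 21 lower in 786O, 28 higher in WT8, 30 lower in WT8 shControl and 33 positive interactions. Of all 16838 genes it called, in either direction and in the same order, 8055, 11622, 13268 and 9246.

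Of 3572 single-gene values under the alternatives, 3406 kept direction and call, 99 lost a call, 37 gained one and 30 changed sign. The sign changes were all in values that were called neither in the reported fit nor in the alternative. In 786O, the log2 change with shBMAL1 of PSMB3 was 0.0067 with DESeq2 and 0.0066 with RLE scaling, and that of PSMB7 0.0029 and 0.0028. In WT8 it was 0.00043 for PSMD5 with only the 2 groups compared and -0.0075 for PSMC4 with counts halved. When 1 library was left out, the ranges that crossed 0 were as follows. In 786O, PSMB1 -0.083 to 0.024, PSMB3 -0.025 to 0.0062, PSMB7 -0.037 to 0.017, PSMC6 -0.0054 to 0.032, PSMD1 -0.012 to 0.031, PSMD5 -0.032 to 0.085. In WT8, PSMC1 -0.17 to 0.063, PSMC4 -0.019 to 0.028, PSMD5 -0.071 to 0.016. Between the lines with shControl, PSMC6 -0.16 to 0.060. Between the lines with shBMAL1, PSMD7 -0.038 to 0.015, PSMD10 -0.023 to 0.039, PSME1 -0.047 to 0.029. For the interaction, PSMD5 -0.12 to 0.0082.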
